A study of Mus musculus with 3 samples.

Results

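The miR-99/100 and miR-10 family was examined in sorted Müller glia (MG), the main glial cells of the retina. Its members were the rows of the value table with the mouse miRBase identifiers of miR-99a (MIMAT0000131), miR-99b (MIMAT0000132), miR-100 (MIMAT0000655), miR-10a (MIMAT0000648) and miR-10b (MIMAT0000208). All 5 were present among the 602 miRNA rows, 3 in the miR-99/100 branch and 2 in the miR-10 branch. The data comprised 3 samples of adult mice, 1 pooled sample per condition. All mice carried Rlbp1-CreER, a tamoxifen-inducible Cre recombinase driven by a gene that is active in Müller glia, and a tdTomato reporter, and tdTomato+ cells were sorted. The wild type sample (Rlbp1-CreER:tdTomato) pooled 40 undamaged retinas. The LD sample carried the same transgenes in mice crossed to the albino Swiss Webster strain, which brings in the leucine variant of the retinal pigment epithelial protein RPE65, and pooled 44 retinas taken 7 days after light damage (8 h at 10000 lux). The Dicer-cKO sample (Rlbp1-CreER:tdTomato:Dicerf/f) pooled 26 retinas 1 month after the deletion of Dicer. Tamoxifen was given at 75 mg/kg to the mice of all 3 conditions. The wild type and Dicer-cKO samples had been measured for an earlier study and were normalized again with LD. In comparisons with LD, neither the strain nor the run of the assay can therefore be told apart from the condition. Whether the wild type and Dicer-cKO samples also differed in strain or run is not stated in the sources used here. Dicer mRNA is not a row of the table and was not analysed here, and of the miRNAs fixed as Müller glia markers only miR-99a and miR-100 can be named by the sources used here.

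A mature miRNA is cut from its hairpin precursor by Dicer, is loaded into an Argonaute protein and represses mRNAs that pair with its seed, the bases near its 5′ end. The miR-10 family is among the oldest miRNA families of animals. Its miR-99/100 branch is transcribed in clusters with let-7 and miR-125 miRNAs, is abundant in glia and is known for repressing the kinase mTOR and the receptor Igf1r. Its miR-10 branch lies within the Hox clusters, which pattern the trunk and hindbrain, and the retina forms from the forebrain, where these clusters are largely silent.

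The mature sequences are shown because the members are so alike that their probes had to tell apart single bases. All 5 matched RefSeq by name (build GRCm38.p6), are written 5′ to 3′, and have the seed (bases 2 to 8) in capitals.
miR-99a: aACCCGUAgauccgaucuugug
miR-100: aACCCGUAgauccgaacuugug
miR-99b: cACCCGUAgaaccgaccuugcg
miR-10a: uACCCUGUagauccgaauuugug
miR-10b: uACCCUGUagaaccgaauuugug

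The seed ACCCGUA belonged to miR-99a, miR-99b and miR-100 and to no other of the 1679 mature miRNA names in the RefSeq table, and the seed ACCCUGU to miR-10a and miR-10b alone. Counted from the 5′ end, miR-99a and miR-100 differed at 1 base, U16A, outside the seed. miR-99b differed from miR-99a at 4 bases, namely A1C, U11A, U16C and U21C, and at 4 bases from miR-100. miR-10a and miR-10b differed at U12A only. The branches had 22 and 23 bases, and the nearest pair across them, miR-100 and miR-10a, was 3 changes apart and shared the 11-base run guagauccgaa. How far the assay separated miR-99a from miR-100 was not tested, and the ratio of their counts differed between the samples, as given further on.

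The members lie at separate loci, all on the plus strand. Mature miR-99a is encoded at chr16:77598940-77598961, where let-7c-5p follows 732 bases downstream and miR-125b-5p 47339 bases downstream. miR-100 is at chr9:41531437-41531458 within the span of the noncoding gene Mir100hg, with let-7a-2-3p at 5340 bases and a further miR-125b-5p copy at 50503 bases. miR-99b is at chr17:17830194-17830215 within the span of Spaca6, a sperm protein gene, with let-7e-5p at 172 bases and miR-125a-5p at 623 bases. miR-10a is at chr11:96317186-96317208 within the span of Hoxb3, and miR-10b at chr2:74726074-74726096 within the overlapping spans of Hoxd3 and Hoxd4. The table used here gives gene spans and not exons. Levels of the neighbouring miRNAs are not given, because no source used here pairs their names with the rows of the values.

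The depth of the samples differed. The miRNA counts summed to 783889, 468576 and 195642 normalized counts in wild type, LD and Dicer-cKO MG, but the authors' scaling had multiplied the counts by 1.15, 2.04 and 4.42. Before scaling the sums over miRNAs above the lowest value were 678491, 229889 and 43931 counts. The highest negative control row, which holds no mouse sequence, stood at 23.4, 31.5 and 38.6 counts before scaling. In normalized counts this corresponds to 27.0 in wild type, 64.1 after LD and 171 in Dicer-cKO MG, and these values serve below as the background level. A lowest value of 1 count before scaling, far below this background level, was shared by 260, 356 and 359 of the 602 miRNAs. A spread between samples could not be had from 1 sample per condition, and no test was made. The ranges given in brackets are exact 95% Clopper-Pearson intervals, or exact Poisson intervals for single levels, and cover counting error only.

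miR-99a, the most abundant member, reached 19815 normalized counts in the wild type sample (19519 to 20113), 9626 in the LD sample (9354 to 9905) and 2284 in the Dicer-cKO sample (2093 to 2491). In the authors' scaling it was highest in wild type MG, intermediate after LD and lowest in Dicer-cKO MG, and each level lay outside the counting intervals of the others. All 3 levels were far above the background level. By counts it held the 7th place among the 602 miRNAs in wild type MG, the 11th after LD and the 19th in Dicer-cKO MG. Counts of different miRNAs depend on their probes, so a place in this order is one of counts and not of molecules.

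miR-100 has the sequence of miR-99a but for a single base. Wild type MG had 5626 normalized counts of miR-100 (5469 to 5786), LD MG had 1507 (1400 to 1619) and Dicer-cKO MG had 524 (436 to 629). The order of the samples was that of miR-99a, again without overlap of the intervals. In Dicer-cKO MG the level rested on 119 counts before scaling, 3.07 times the highest negative control. miR-100 held the 17th, 31st and 43rd place by counts in wild type, LD and Dicer-cKO MG.

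For miR-99b, the member of the Spaca6 locus, 675 normalized counts were found in undamaged wild type MG (621 to 731), 97 in LD MG (72.0 to 130) and 180 in Dicer-cKO MG (130 to 246). The normalized value was lowest after LD, but both low levels were close to background, because they rested on 47.5 and 40.6 counts before scaling, 1.51 and 1.05 times the highest negative control. miR-99b was therefore clearly measured above the controls in wild type MG only, and the order of its other levels cannot be read.

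The miR-10 branch was at background. miR-10a stood at 32 normalized counts in the wild type sample, at 2 in the LD sample and at 4 in the Dicer-cKO sample. The wild type value rested on 27.4 counts, 1.17 times the highest negative control, and the other values were the lowest values of their samples. miR-10b stood at 1, 3 and 4 normalized counts in the same order of samples, all under the floor of 3 counts before scaling. This floor corresponds to 3.46 normalized counts in wild type, 6.11 after LD and 13.3 in Dicer-cKO MG. No fold is given for either of them, and an order among such values cannot be read.

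**Figure D1:**
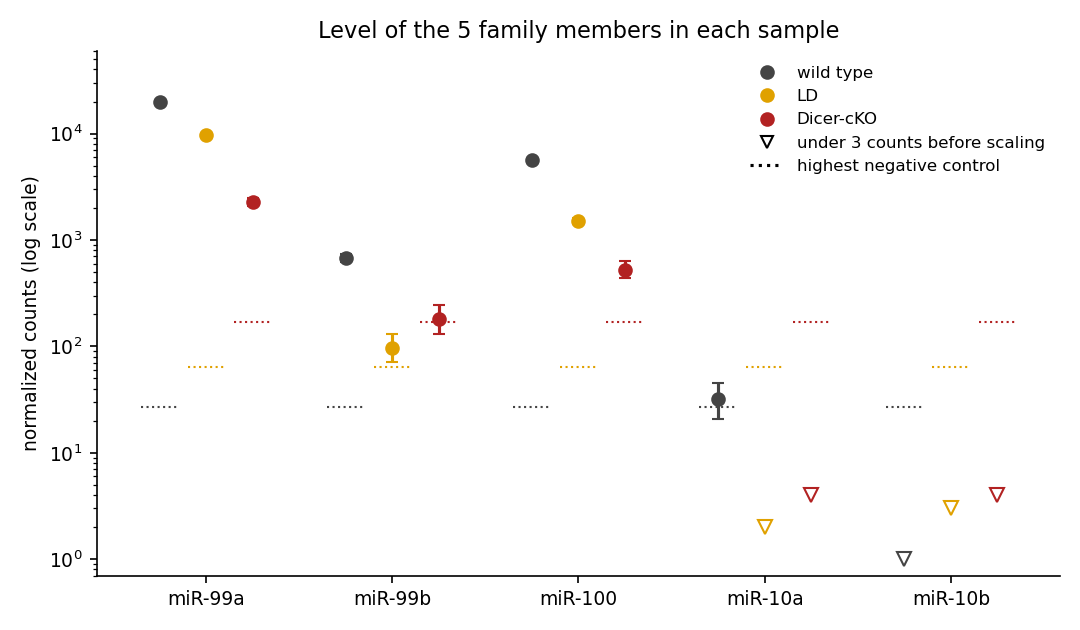
Normalized counts (log scale) of the 5 members in the wild type, LD and Dicer-cKO samples, with exact 95% Poisson intervals; open triangles are values under 3 counts before scaling and dotted lines the highest negative control of each sample. miR-99a (19815, 9626 and 2284) and miR-100 (5626, 1507 and 524) lie above the controls in all 3 samples, while miR-99b meets them in Dicer-cKO MG and the miR-10 branch lies below them except for miR-10a in wild type MG, at 1.17 times the control.

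In each sample miR-99a made up most of the counts of the family. Its share of the 5 members was 75.8% for wild type (75.2 to 76.3), 85.7% for LD (84.7 to 86.6) and 76.2% for Dicer-cKO MG (72.9 to 79.4). The share after LD lay above that of wild type MG. The place of the Dicer-cKO share depended on background, because with the highest negative control subtracted again it was 85.1% (81.8 to 87.9), beside 86.6% (85.7 to 87.5) for LD and 76.0% (75.4 to 76.5) for wild type. The share of miR-100 was 21.5% for wild type (21.0 to 22.1), 13.4% for LD (12.5 to 14.3) and 17.5% for Dicer-cKO MG (14.8 to 20.6). Together, the 5 members accounted for 3.34% of all miRNA counts for wild type, 2.40% for LD and 1.53% for Dicer-cKO MG. The order of wild type and LD in this total depended on 1 miRNA, the most abundant of the LD sample, which made up 36.9% of the counts there. Without it the family accounted for 3.44% of the remaining counts for wild type, 3.80% for LD and 1.62% for Dicer-cKO MG. None of these shares depends on the factor that scales a sample.

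The first comparison asked how the members differed between reactive MG after light damage and undamaged MG. In the authors' scaling miR-99a, miR-99b and miR-100 were all lower after LD, although miR-99a was not lower under 2 of 9 other scalings. They are the 3 of 5 members with a mean of at least 100 normalized counts over the samples. miR-99b passed this limit although it had 97 counts after LD. Of the 104 miRNAs with that mean, 58.7% were lower after LD beyond counting error and 39.4% were at least 2-fold lower, so most of the panel lay in the direction of the family. The rule based on counting error alone also took in miR-10a, which is left out here because its values were at background. The decline was 51.4% for miR-99a (49.8 to 53.0), 73.2% for miR-100 (71.1 to 75.3) and 85.7% for miR-99b (80.5 to 89.4). With the highest negative control subtracted again the ratio of miR-99b to wild type was 0.0503 (0.0285 to 0.0823), in place of 0.143. The median of the 104 miRNAs was a decline of 38.8%. The intervals of the 3 members did not overlap, with the smallest decline for the most abundant member.

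The place of a member among the changes of the panel is not altered by the factors of the samples. Counted from the largest decline after LD, miR-100 held the 20th and miR-99a the 40th place of 104. miR-99b stood 4th in the deposited values, but its 47.5 counts after LD were close to background, so its place was not settled. The intervals of 53 miRNAs lay entirely above that of miR-99a and those of 31 entirely below it, so its change was near the middle of the panel.

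The next comparison asked how the members stood 1 month after the loss of Dicer. miR-100 was lower than in wild type MG by 90.7% (88.8 to 92.3) and miR-99a by 88.5% (87.4 to 89.5). miR-99b was also lower, but its Dicer-cKO value was at background, so that the size of its decline was not measured. Its ratio to wild type was 0.266 in the deposited values. With the highest negative control subtracted again and the Dicer-cKO count set to the floor of 3, it was at most 0.0205. This is an upper bound, and its range (0.00421 to 0.0601) is that of a count of 3. In this comparison 69.2% of the 104 miRNAs were lower beyond counting error and 60.6% at least 2-fold lower, and the median decline was 61.2%. All 3 members of the branch were again lower in the authors' scaling, although miR-99b was not lower under 2 of 9 others. Under these, the same total miRNA count and that total without the most abundant miRNA of the LD sample, 18.3% and 17.3% of the 104 miRNAs were lower beyond counting error. From the largest decline downwards miR-100 held the 5th and miR-99a the 8th place of 104. In the deposited values the intervals of miR-99a and miR-100 overlapped, and only 2 and 1 of the other intervals lay entirely below theirs. With the highest negative control subtracted again the ratio to wild type was 0.107 for miR-99a (0.0973 to 0.117) and 0.0632 for miR-100 (0.0500 to 0.0788), and these intervals did not overlap. In the deposited values miR-99a was thus near the middle of the panel after LD and close to its lower end after Dicer deletion. The latter place favours abundant miRNAs, because a decline of this size in the less abundant ones would end below the Dicer-cKO background level of 171. With the control subtracted the median ratio to wild type was 0.216 over 103 miRNAs, in place of 0.388. Of miRNAs with a mean of at least 1000, 78.4% were at least 2-fold lower. Places after the subtraction were not determined.

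The ratios of Dicer-cKO to LD do not use the wild type sample, although the 104 miRNAs beside them were chosen by the mean over all 3 samples. In the authors' scaling miR-99a was 4.21-fold lower in Dicer-cKO MG than after LD and miR-100 was 2.87-fold lower (2.36 to 3.50). Both folds depended on the scaling, as given further on. miR-99b was the exception, with 1.86-fold the LD level in Dicer-cKO MG (1.19 to 2.87). Of the 104 miRNAs, 55.8% were lower in Dicer-cKO MG beyond counting error, 41.3% were at least 2-fold lower and 23.1% were higher beyond counting error. Before scaling miR-99b had 47.5 counts after LD and 40.6 in Dicer-cKO MG, both near the negative controls. With the highest negative control subtracted again and the Dicer-cKO count at the floor its ratio was at most 0.407 (0.0760 to 1.42 for a count of 3). The direction of miR-99b in this comparison was thus not settled.

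**Figure D2:**
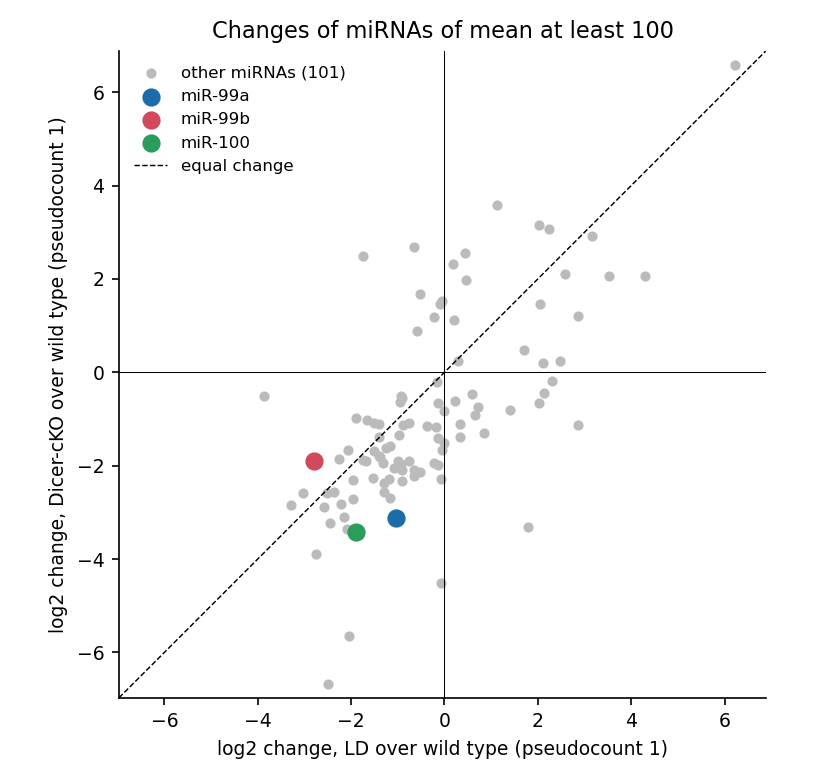
Log2 change (pseudocount 1) after LD (horizontal axis) and in Dicer-cKO MG (vertical axis), each against the same wild type sample, for the 104 miRNAs of mean at least 100; each point is 1 miRNA. miR-99a (-1.04 and -3.12) and miR-100 (-1.90 and -3.42) lie below the dashed line of equal change; miR-99b is drawn at -2.79 and -1.90, from values near background whose side of the line is not settled.

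The plane of both log2 changes was also used to count miRNAs with a similar pattern. Within a distance of 0.5 of miR-100 lay 2 of the other 103 miRNAs, and 1 lay within that distance of miR-99a, or 0 with a pseudocount of 10. The distance between miR-99a and miR-100 was 0.91, and neither was among the 3 miRNAs nearest to the other. The place of miR-99b in this plane was not measured, because its values after LD and in Dicer-cKO MG were near background. The nearest miRNAs have no name in the sources used here. This likeness rests on 2 changes that share the wild type sample.

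Ratios between members of the same sample do not depend on its scaling either. The ratio of miR-99a to miR-100 was 3.52 for wild type (3.41 to 3.64), 6.39 for LD (5.91 to 6.92) and 4.36 for Dicer-cKO MG (3.55 to 5.35). It was therefore 1.81 times as high after LD as in wild type MG (1.67 to 1.98), and with the highest negative control subtracted again 1.87 times (1.72 to 2.04). In Dicer-cKO MG it was 1.24 times as high as in wild type MG (1.01 to 1.52), but 1.69 times (1.33 to 2.17) with that subtraction. Against LD it was 0.682 times as high in Dicer-cKO MG (0.547 to 0.849) in the deposited values, which is beyond counting error, and 0.902 times (0.700 to 1.17) with the subtraction, which is not. miR-99a and miR-100, which are 1 base apart, thus differed in their change after LD beyond counting error, and the retained share was larger for miR-99a.

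The ratios to miR-99b depended on its low counts after LD and in Dicer-cKO MG. In the deposited values the ratio of miR-99a to miR-99b was 29.4 for wild type (27.0 to 32.0), 99.6 for LD (74.2 to 134) and 12.7 for Dicer-cKO MG (9.17 to 17.8). With the highest negative control subtracted again it was 30.5 for wild type (28.1 to 33.3) and 294 for LD (181 to 514). In Dicer-cKO MG miR-99b then had 2.01 counts, and with miR-99b set to the floor of 3 the ratio was at least 159. This is a lower bound, and its range (54.2 to 775) is that of a count of 3. The ratio of miR-100 to miR-99b was 8.34 for wild type (7.65 to 9.10), 15.6 for LD (11.5 to 21.1) and 2.92 for Dicer-cKO MG (2.02 to 4.25) in the deposited values. After the subtraction it was 8.64 for wild type (7.92 to 9.45) and 44.3 for LD (27.1 to 78.0). For Dicer-cKO MG, again with miR-99b at the floor, the lower bound was 26.7. Its range for a count of 3 (8.80 to 132) overlaps the interval of wild type. Both ratios were thus above wild type after LD in either way. For Dicer-cKO MG both were below wild type in the deposited values but not after the subtraction, so that no direction can be given for that sample.

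**Figure D3:**
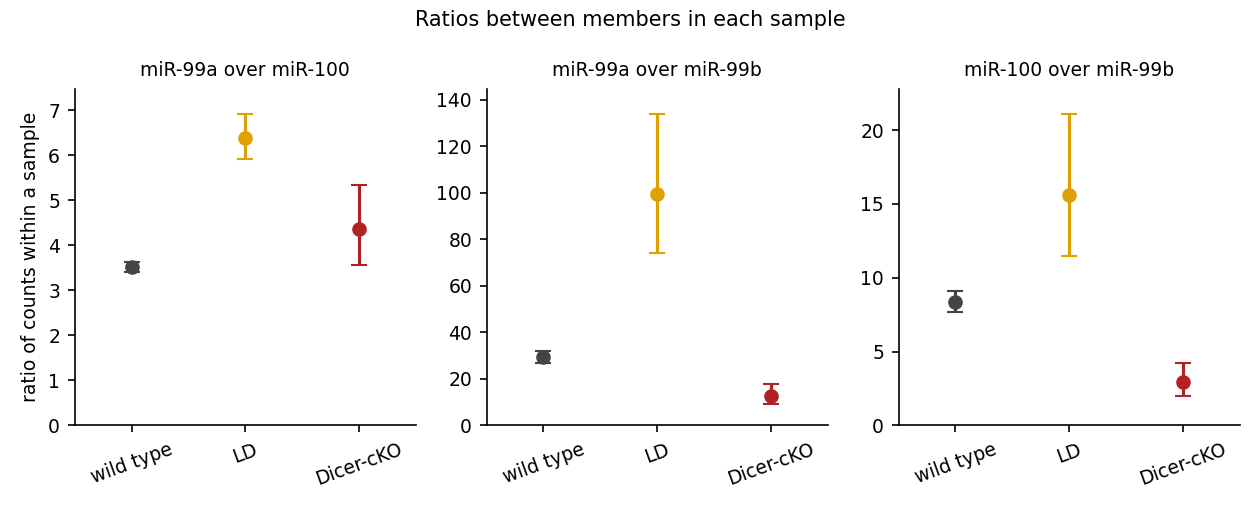
Ratio of the counts of 2 members within each sample, with exact 95% Clopper-Pearson intervals, for miR-99a over miR-100, miR-99a over miR-99b and miR-100 over miR-99b. All 3 ratios are higher after LD (6.39, 99.6 and 15.6) than in wild type MG (3.52, 29.4 and 8.34). The ratios to miR-99b in Dicer-cKO MG (12.7 and 2.92) divide by a value at background, and neither is below wild type when the highest negative control is subtracted.

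The size of the declines depended on the reference for scaling. The 4 housekeeping mRNAs did not move in parallel, and after LD the normalized Gapdh level was 0.475 times and the Rpl19 level 1.71 times that of wild type MG. Over the 10 scalings the median ratio of the 104 miRNAs to wild type MG ranged from 0.307 to 1.57 after LD and from 0.0716 to 1.60 after Dicer deletion. miR-100 was lower than in wild type MG under all 10 scalings tried, with ratios between 0.134 and 0.688 after LD and between 0.0172 and 0.384 in Dicer-cKO MG. miR-99a was lower in Dicer-cKO MG under all 10, with ratios between 0.0212 and 0.474. After LD miR-99a was lower under 8 of them, and its ratio was 1.02 (0.989 to 1.06) with Gapdh as the only reference and 1.25 (1.21 to 1.29) with the total miRNA count, less the most abundant miRNA of the LD sample, as reference. miR-99b was lower after LD under all 10, with ratios between 0.0718 and 0.368, and in Dicer-cKO MG under 8. Both miR-99a and miR-100 were lower in Dicer-cKO MG than after LD under all 10 scalings, for miR-100 beyond counting error under 9. The median Dicer-cKO to LD ratio of the 104 miRNAs ranged from 0.221 to 1.44 over these scalings. The share of them lower beyond counting error ranged from 86.5% down to 17.3%.

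**Figure D4:**
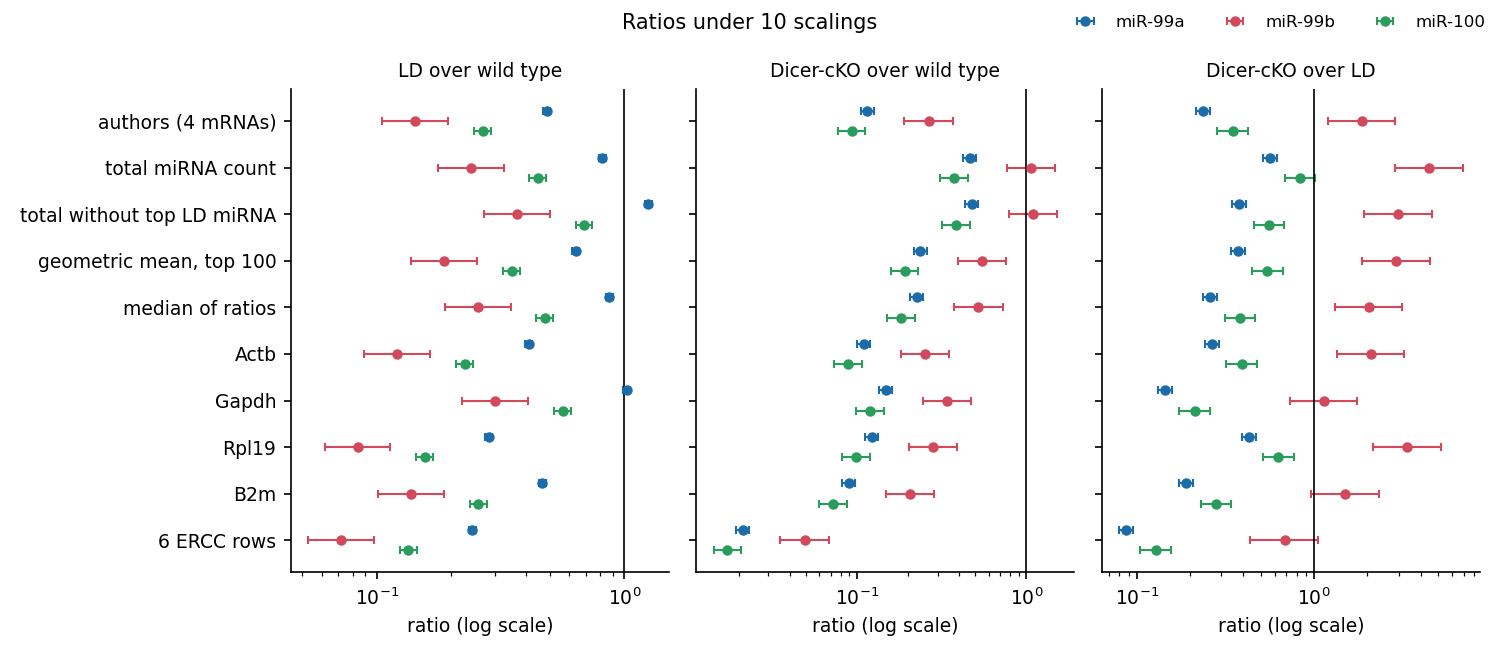
Ratios of miR-99a, miR-99b and miR-100 (log scale, exact 95% Clopper-Pearson intervals of counting error) for LD over wild type, Dicer-cKO over wild type and Dicer-cKO over LD, under the authors' scaling and 9 others; the vertical line marks a ratio of 1. The ratios of miR-100 are below 1 throughout, although 1 interval reaches 1.02 (Dicer-cKO over LD, same total miRNA count). miR-99a is above 1 after LD under 2 scalings (1.02 and 1.25), miR-99b changes side under 2 for Dicer-cKO over wild type (1.07 and 1.10) and under 1 for Dicer-cKO over LD (0.683), and a change of scaling moves all 3 members together.

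In bulk samples fewer Müller glia and less miRNA per cell cannot be told apart, and the markers of other retinal cell types were not analysed here because their rows have no names. The levels therefore describe the sorted samples as a whole.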

How the data were processed

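The authors counted tagged molecules on the NanoString nCounter platform, without amplification, and used nSolver 4.0 to subtract background and to normalize against 4 housekeeping mRNAs, with 8 negative and 6 positive controls. The deposited values are a signal, namely these normalized counts, for 602 miRNAs and 24 other rows, 1 pooled sample per condition. No genome or aligner is involved. Tamoxifen was given on 3 days per the labels and on 4 per the paper.

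Rows kept with 2 decimals gave the scaling factor of a sample, and the counts before scaling followed by division. All 342, 246 and 243 miRNAs above the lowest value (wild type, LD, Dicer-cKO) then equalled a whole count plus the decimal part of their sample within 0.51 normalized counts. The 8 lowest of the 14 ERCC rows were taken as the negative controls. Counts under a floor of 3 stood at the floor, so a ratio with 1 such count is a bound and its interval that of a count of 3. Ratios were given exact Clopper-Pearson intervals of the counts after background subtraction, and ratios of ratios exact conditional intervals. They cover counting error only. The interval step was tested on simulated Poisson counts without background and with low counts left out. Its behaviour for low counts or after background subtraction was therefore not tested. Conditions were not tested against each other, since each has 1 sample.

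The text names the 5 members only. Planned ratios to cluster neighbours and cell type markers were not computed, because the table lists miRBase identifiers and no source used here pairs the other rows with names. The members, rules and alternatives were chosen with earlier results of these data known. The analysis used scipy 1.17.1, numpy 2.4.6 and pandas 2.3.3 under Python 3.11.15, with figures drawn in matplotlib 3.10.9.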

Additional observations from a re-analysis of the deposited data

How the results depend on the processing

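The alternatives comprised 9 other scalings, 3 other backgrounds, other limits for the panel and other pseudocounts. Subtraction of the highest negative control was chosen after seeing the data, as were the other backgrounds for ratios between members, the 3 counts added back for the miR-99a share, the share of the panel under each setting and the family share without the most abundant miRNA of the LD sample. The number of members lower after LD by counting error alone, 4 in the authors' scaling with miR-10a among them and 3 with the highest negative control subtracted, was 2 with Gapdh as the only reference and 2 with the same total miRNA count without the most abundant miRNA of the LD sample, where the ratio of miR-99a to wild type was 1.02 and 1.25. The share of the 104 miRNAs lower after LD by the same rule moved too, from 58.7% to 66.3% with the control subtracted, 31.7% with Gapdh and 20.2% with that total. The number lower in Dicer-cKO MG than after LD, otherwise 2, was 1 with the same total miRNA count, where 17.3% of the 104 miRNAs were lower in place of 55.8%. miR-99b in Dicer-cKO MG had a ratio to wild type of 1.07 with the same total and 1.10 with the total without that miRNA. Its ratio to LD was 0.683 with the 6 highest ERCC rows as reference. With the highest negative control subtracted and its Dicer-cKO count at the floor, that ratio was at most 0.407 (0.0760 to 1.42 for a count of 3). That subtraction lowered the ratio of miR-99b to wild type from 0.143 to 0.0503 after LD. In Dicer-cKO MG it lowered the ratio from 0.266 to at most 0.0205 (0.00421 to 0.0601 for a count of 3). The subtraction also gave a miR-99a share of 85.1% and a ratio of miR-99a to miR-100 of 5.97 in Dicer-cKO MG. The ratios of miR-99a and miR-100 to miR-99b were then 294 and 44.3 after LD. In Dicer-cKO MG, with miR-99b at the floor, they were at least 159 (54.2 to 775) and at least 26.7 (8.80 to 132), with ranges for a count of 3. Without the subtraction they were 12.7 and 2.92 there. The share of the panel at least 2-fold lower was 23.1% for LD, and 21.2% for Dicer-cKO against LD, at a limit of 3-fold, and 37.9% for Dicer-cKO against wild type and 24.7% against LD without a limit on the mean. The cause of these changes was not tested. A further 80 values of these counts, shares and ratios stayed within 1.5 times the count or within counting error. Of the ratios of single members between samples, 39 stayed within counting error and 63 left it without a change of direction. With pseudocounts of 0.5 and 10, at least 2 of the 3 miRNAs nearest to miR-99a and to miR-100 were the same, but with 10 the number within 0.5 of miR-99a fell from 1 to 0. No paired analysis was possible because there is only 1 sample per group. The Dicer-cKO sample had the fewest counts and the highest background level, which limits miR-99b and the miR-10 branch most.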
